A study of Mus musculus with 2 samples.

Results

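Pericytes are the mural cells that wrap capillaries, and the cells described here are the lung barcodes that carry their transcripts: 277 of 26917 barcodes, 99 in the S100A4-11 library and 178 in the IgG library. The members were chosen by their measured UMI counts (UMIs are molecular tags, each counted once). A barcode had at least 200 detected genes and at most 15% of its UMIs from mitochondrially encoded genes, which 26650 barcodes passed. It held at least 2 of the 5 genes Cox4i2, Higd1b, Pdgfrb, Trpc6 and Notch3, with Cox4i2, Higd1b or Trpc6 among them. It held at most 1 UMI of the smooth muscle genes Myh11, Actg2 and Cnn1 together, at most 1 UMI of the endothelial genes Cdh5 and Cldn5 together, and none of Ptprc, Epcam or Pdgfra, which mark leukocytes, epithelium and fibroblasts.

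The S100A4-11 library came from lungs of mice given an antibody that the labels call S100a4-11, and the IgG library from lungs of mice given an IgG antibody. Both were from BALB/c mice that carried 4T1 cells, a mouse mammary carcinoma line, in the mammary fat pad, and lungs were taken on day 14 after inoculation. The extraction text speaks of tumour tissue, while the tissue label says lung, and both libraries held alveolar epithelium and alveolar macrophages. Both were made with a 10x Genomics 5′ single-cell kit. The labels give neither the age nor the number of mice behind a library, and there was 1 library per group, so no difference below has a replicate check. Intervals are exact 95% intervals and cover counting error only.

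Pericytes share the capillary basement membrane with the endothelium. Endothelial cells recruit them with platelet-derived growth factor B, which acts on PDGFRB, and hold them with Notch ligands, which act on NOTCH3. Pericytes signal back with angiopoietin 1, lay down basement membrane, and relax through nitric oxide, soluble guanylate cyclase and cyclic GMP. In the lung they lie against the gas-exchange capillaries, and in tumour models pericytes have been described as part of the pre-metastatic niche, the setting named in the study's title.

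Promoter sequences show what stands upstream of genes that chose or mark these cells. Of 27 genes looked up (the 5 of the rule and a list of 22 other mural genes), 17 had a promoter in the RefSeq table (build GRCm38.p6). The 250 bases before the start of transcription are shown for Trpc6 and Notch3, the 2 rule genes with an entry, and for Gucy1b1, a subunit of the nitric oxide receptor. Capitals mark, on either strand, TGGGAA (the core bound by the Notch partner RBPJ), ACGTG (the core of the hypoxia response element) and the CArG box (bound by serum response factor). Trpc6 lies at chr9:8543892-8544141 on the + strand, Notch3 at chr17:32166891-32167140 on the - strand, and Gucy1b1 at chr3:82074712-82074961 on the - strand, each read 5′ to 3′ along the gene.
Trpc6: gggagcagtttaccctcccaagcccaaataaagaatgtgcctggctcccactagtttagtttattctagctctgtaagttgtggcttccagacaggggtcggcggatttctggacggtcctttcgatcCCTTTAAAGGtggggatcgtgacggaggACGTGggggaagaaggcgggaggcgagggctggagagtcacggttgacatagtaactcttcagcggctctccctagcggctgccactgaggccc
Notch3: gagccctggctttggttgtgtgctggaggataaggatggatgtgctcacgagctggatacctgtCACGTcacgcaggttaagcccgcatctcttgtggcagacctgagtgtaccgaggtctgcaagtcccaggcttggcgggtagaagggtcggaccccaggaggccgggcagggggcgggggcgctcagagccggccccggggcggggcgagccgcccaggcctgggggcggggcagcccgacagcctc
Gucy1b1: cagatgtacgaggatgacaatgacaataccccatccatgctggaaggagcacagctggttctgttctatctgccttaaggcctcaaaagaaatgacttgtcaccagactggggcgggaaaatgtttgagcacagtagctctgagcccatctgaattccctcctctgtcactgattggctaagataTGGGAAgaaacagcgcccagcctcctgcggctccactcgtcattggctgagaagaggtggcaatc
Trpc6 held 1 CArG box and 1 ACGTG, Notch3 held 1 ACGTG, and Gucy1b1 held 1 TGGGAA. Among all 32851 promoters of the same length, 1.47% held a CArG box, 16.6% an ACGTG and 21.6% a TGGGAA. Among the 17 mural genes with an entry, 1 held a CArG box, 3 an ACGTG and 6 a TGGGAA. A gene was counted here if any of its promoters held the motif, so these counts and the shares per promoter are unlike measures. These matches are a description of the letters in this window.

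The members were shallow. They held a median of 1614 UMIs (range 502 to 7075) in the S100A4-11 library and 1762 (507 to 13997) in the IgG library, or 187579 and 356229 UMIs in all. The median was 1002 genes per member in the S100A4-11 library and 1027 in the IgG library. The libraries shared 266 cell barcodes, none of them a member in both. Scrublet, a doublet caller, marked 2 members in the S100A4-11 library and 1 in the IgG library. Of the barcodes that met the marker rule, 99 of 330 (30%) were kept in the S100A4-11 library and 178 of 715 (24.9%) in the IgG library. The Cdh5 and Cldn5 condition was failed by 33.0% of the 330 and 44.9% of the 715, a larger share of marker-positive barcodes in the IgG library. Most of these failed another condition too. Barcodes that failed this condition alone were 13.9% of the 330 and 15.5% of the 715, close in both libraries. At the edges of the rule, 12 S100A4-11 and 16 IgG members held 1 UMI of Cdh5 and Cldn5, and 3 S100A4-11 and 8 IgG barcodes fell just outside with 2. For the smooth muscle genes, 29 S100A4-11 and 59 IgG members held 1 UMI, and 15 S100A4-11 and 19 IgG barcodes fell just outside with 2. On the marker count, 19 S100A4-11 and 29 IgG members held exactly 2 of the 5 genes, and 39 S100A4-11 and 74 IgG barcodes fell just outside with 1.

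Pericytes made up 0.801% of kept barcodes in the S100A4-11 library (99 of 12365, Clopper-Pearson interval 0.651 to 0.974%) and 1.25% in the IgG library (178 of 14285, 1.07 to 1.44%). The share was 0.643 times that of the IgG library (interval 0.497 to 0.826). Several other resident gates, each set by marker genes, had ratios below 1 too: 0.662 (0.519 to 0.841) for smooth muscle, 0.767 (0.662 to 0.887) for fibroblasts, 0.602 (0.458 to 0.788) for type 2 alveolar epithelium and 0.381 (0.239 to 0.589) for type 1. The endothelial ratio was 0.972 (0.919 to 1.03), and the B cell ratio was 1.81 (1.65 to 1.98). Over barcodes without a Ptprc UMI, which leaves most leukocytes out of the denominator, the pericyte ratio was 0.706 (0.547 to 0.908). Fewer pericytes in the lung and fewer recovered on dissociation cannot be told apart here.

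Mural genes that the rule did not use were also present. Of a list of 22, 21 were detected and 17 had at least 20 UMIs. Levels are in CPM, the summed UMIs of a gene as a share of all UMIs of the members on the usual CPM scale, and are compared between libraries and gates, not between genes. Postn, the matricellular protein periostin, stood at 3055 CPM in S100A4-11 pericytes and 3304 CPM in IgG pericytes, and the nitric oxide receptor subunit Gucy1a1 at 3225 and 3534 CPM in the same order. Vtn, which encodes vitronectin, stood at 379 CPM in S100A4-11 pericytes and 376 CPM in IgG pericytes. Cspg4, the proteoglycan NG2, stood at 363 CPM in S100A4-11 pericytes and 362 CPM in IgG pericytes. Kcnk3, the potassium channel TASK-1, stood at 645 CPM in S100A4-11 pericytes and 817 CPM in IgG pericytes. Pdzd2, a PDZ domain protein, stood at 6344 CPM in S100A4-11 pericytes, against 713 in the smooth muscle, 165 in the fibroblast and 61.7 in the endothelial gate of that library. In IgG pericytes Pdzd2 stood at 7905 CPM, against 624, 198 and 90.9 in the same gates of that library. Rgs5, a signalling regulator used as a pericyte marker in other organs, was low at 10.7 CPM in S100A4-11 pericytes and 25.3 CPM in IgG pericytes. Abcc9 and Kcnj8, the subunits of a potassium channel that mark brain pericytes, reached 58.6 and 64.0 CPM in S100A4-11 pericytes and 22.5 and 64.6 CPM in IgG pericytes. Nrip2, another mural marker, had no UMI in the pericytes of either library. Some listed genes stood higher in another gate. Abcc9 stood at 84.9 CPM in S100A4-11 and 86.5 CPM in IgG fibroblasts. Itga8 stood at 48.0 and 115 CPM in pericytes, 357 and 606 CPM in smooth muscle and 1070 and 1140 CPM in fibroblasts. Cdh6 stood at 10.7 and 14.0 CPM in pericytes and 60.9 and 70.2 CPM in smooth muscle. Most of the mural genes listed were thus detected, but not all stood highest in pericytes.

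The rule's own genes are given as a description. Cox4i2 was seen in 82.8% of S100A4-11 and 79.2% of IgG members, at 3188 and 2905 CPM, and Higd1b in 54.5% and 57.9%, at 976 and 946 CPM. In neutrophils, which should lack it, Cox4i2 was seen in 0.723% of S100A4-11 and 1.59% of IgG cells, at median depths of 3726 and 4071 UMIs. Trpc6, a calcium-permeable channel, stood at 1583 CPM in S100A4-11 and 1842 CPM in IgG members. Pdgfrb stood at 1189 CPM in S100A4-11 and 1120 CPM in IgG members, and Notch3 at 1018 and 907 CPM.

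**Figure D1:**
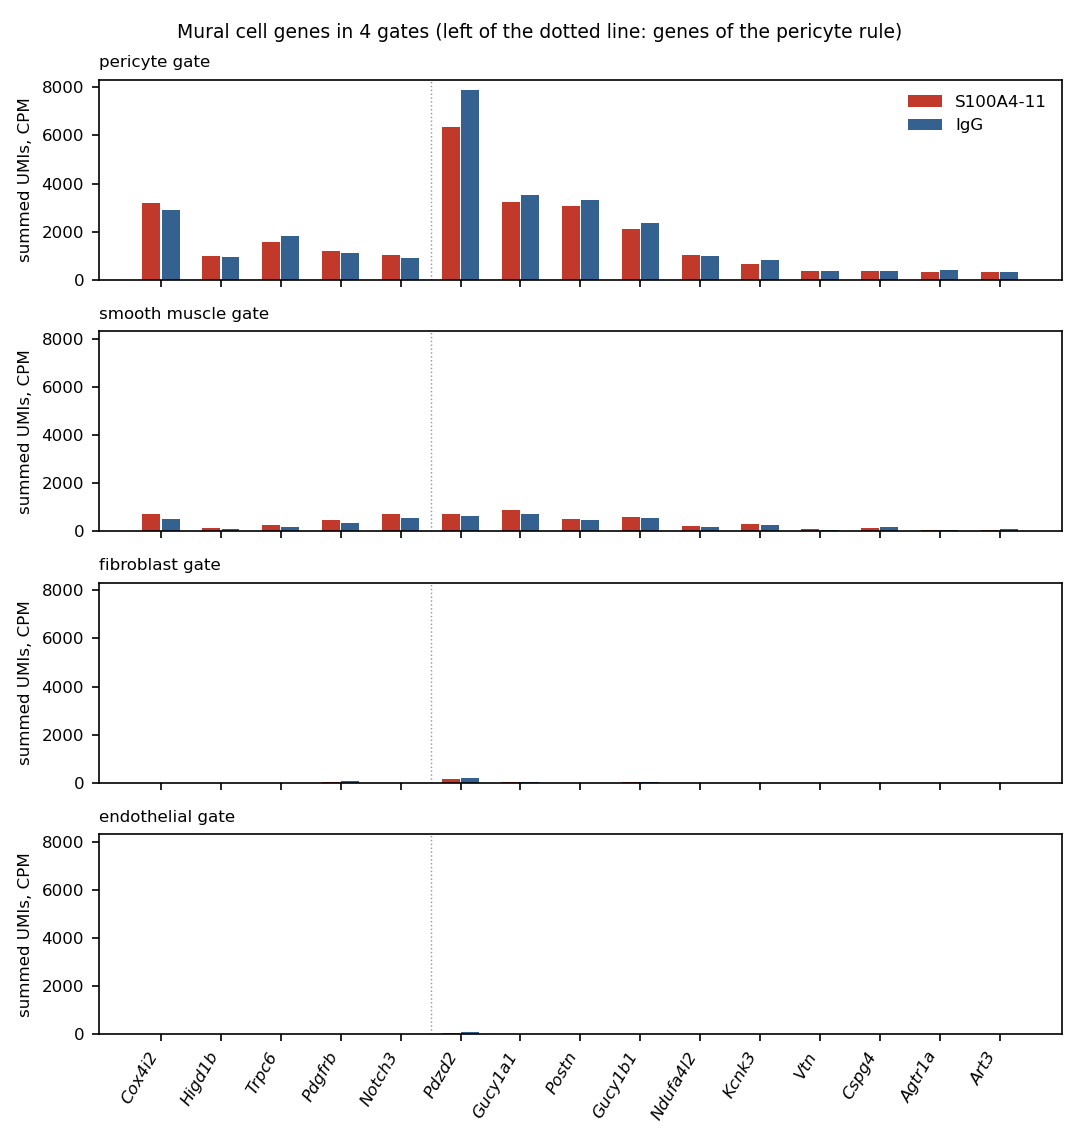
Level (CPM) of 15 mural genes in 4 gates, with the S100A4-11 library in red to the left of the IgG library in blue; each bar is 1 library and there is no replicate. Genes left of the dotted line chose the members, and the fibroblast gate was set to hold no Cox4i2, Higd1b or Trpc6; Pdzd2, outside the rule, stands at 6344 and 7905 CPM in pericytes and at 713 and 624 CPM in smooth muscle.

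Cox4i2, Higd1b and Ndufa4l2 are tissue-restricted relatives of the mitochondrial proteins made from Cox4i1, Higd1a and Ndufa4, which most cells express. Cox4i2 and Higd1b chose the members, and the fibroblast gate was set to hold neither. Ndufa4l2, which the rule did not use, stood at 1034 CPM in S100A4-11 pericytes and 1005 CPM in IgG pericytes, and at 248 and 204 CPM in the smooth muscle gate. Its widespread relative Ndufa4 stood at 123 CPM in S100A4-11 pericytes and 61.8 CPM in IgG pericytes, and at 370 and 417 CPM in smooth muscle. In the endothelial gate Ndufa4 stood at 610 CPM in the S100A4-11 library and 579 CPM in the IgG library. Cox4i1 stood at 576 CPM in S100A4-11 pericytes and 528 CPM in IgG pericytes, against 880 and 911 CPM in smooth muscle and 660 and 661 CPM in the endothelial gate. Higd1a stood at 69.3 CPM in S100A4-11 pericytes and 64.6 CPM in IgG pericytes, against 97.1 and 110 CPM in smooth muscle and 126 and 126 CPM in the endothelial gate. Of 10 list genes of this family with at least 20 UMIs, Ndufa4 was the only one called between the libraries (fold 1.99, 1.06 to 3.74, on 23 S100A4-11 and 22 IgG UMIs), and the list median was 0.13 on the log2 scale. Over all genes tested in pericytes, 5.04% were called higher and 6.33% lower, by the rule given below.

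**Figure D2:**
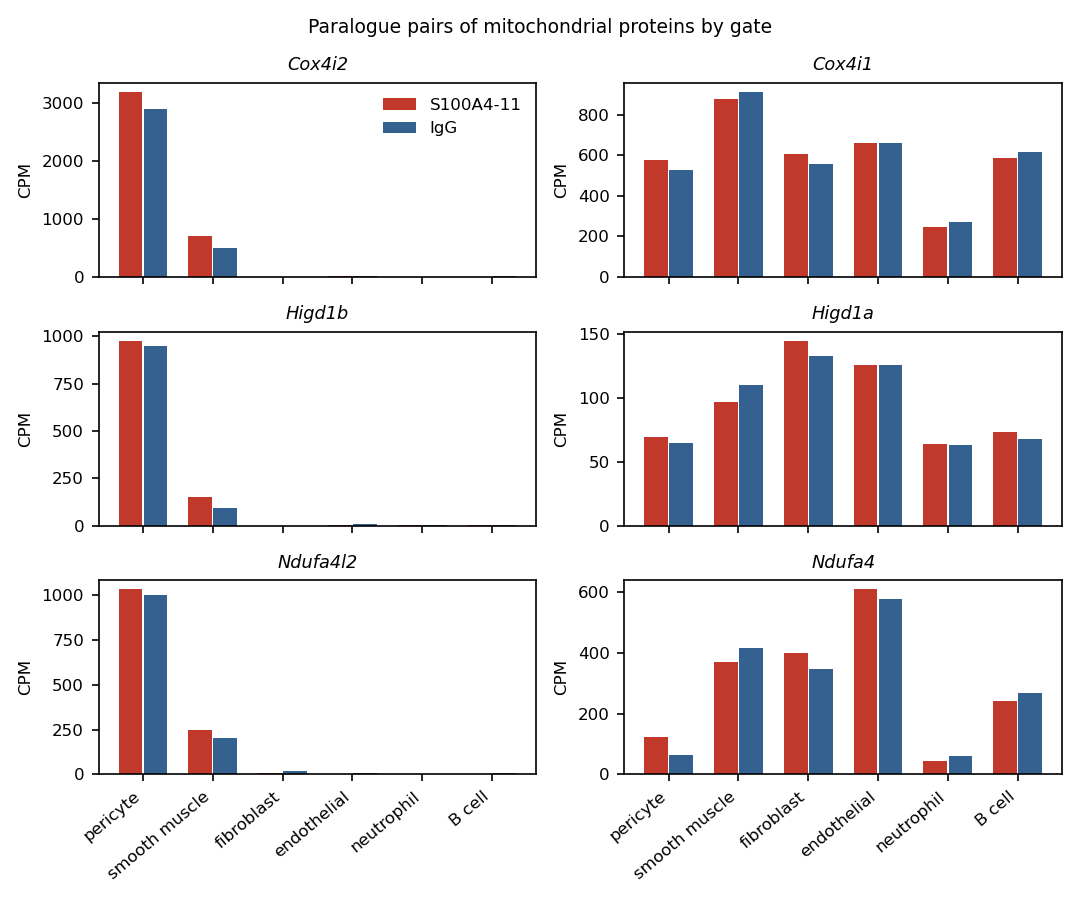
Level (CPM) of 3 restricted mitochondrial proteins (left column) and their widespread relatives (right column) in 6 gates, S100A4-11 in red to the left of IgG in blue, 1 library a bar; the vertical axes differ between panels and all start at 0. Ndufa4l2 stands at 1034 and 1005 CPM in pericytes, where Ndufa4 stands at 123 and 61.8 CPM.

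A further set of genes stood above the smooth muscle, fibroblast and endothelial gates in both libraries. Ranked by the smaller of its ratios to the next gate in each library, the first 15 genes outside the rule were Cstdc2, Fam162b, Gap43, Gatm, Tnfrsf21, Tafa1, Pdzd2, Adam3, Lipg, Rassf5, Agtr1a, Arhgdib, Adcy8, Emid1 and Adgrg6. These are a description, since the members were chosen from the same counts. Agtr1a, the angiotensin II receptor, stood at 325 CPM in S100A4-11 and 396 CPM in IgG pericytes, against 42.9 and 42.8 CPM in smooth muscle, the next gate. Adcy8, an adenylyl cyclase, stood at 1301 CPM in S100A4-11 and 1527 CPM in IgG pericytes, against 181 and 98.7 CPM in smooth muscle. Lipg, which encodes endothelial lipase, stood at 565 and 514 CPM in pericytes and at only 0.883 and 1.16 CPM in the endothelial gate of these libraries. Gap43, a membrane protein best known from growing axons, stood at 171 CPM in S100A4-11 and 174 CPM in IgG pericytes, against 6.77 and 16.4 CPM in smooth muscle.

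The members also held UMIs of genes that mark other cells. The 22 endothelial markers outside the rule summed to 1386 CPM in S100A4-11 pericytes and 2240 CPM in IgG pericytes (ratio 0.619, 0.536 to 0.713). Pecam1, a pan-endothelial adhesion protein, was seen in 4.04% of S100A4-11 and 14.6% of IgG pericytes. The same list summed to 236 CPM in S100A4-11 and 308 CPM in IgG neutrophils (0.766, 0.720 to 0.814), and to 986 and 875 CPM in smooth muscle (1.13, 1 to 1.27). In the endothelial gate it summed to 32190 and 30806 CPM. Scaled to those sums, endothelial RNA would equal 4.31% of the UMIs of S100A4-11 members and 7.27% of those of IgG members. This holds only if all UMIs of the list came from endothelium. Eng, a gene of that list, gave 102 of the 260 list UMIs in S100A4-11 pericytes and 227 of the 798 in IgG pericytes. It stood at 544 and 637 CPM there, against 1729 and 1601 CPM in the endothelial gate. Whether pericytes make Eng was not tested, and both shares would be smaller if they do. Epithelial markers summed to 251 CPM in S100A4-11 and 845 CPM in IgG pericytes, and to 761 and 3026 CPM in neutrophils. In the fibroblast gate the epithelial sum went the other way, at 1838 and 1456 CPM. Markers of smooth muscle were on the opposite side, with 3950 CPM in S100A4-11 and 2594 CPM in IgG pericytes (1.52, 1.38 to 1.68), as were those of fibroblasts, with 3657 and 2619 CPM (1.40, 1.26 to 1.54). The 11 immune markers not used to set a gate summed to 1168 CPM in S100A4-11 and 926 CPM in IgG pericytes (1.26, 1.06 to 1.5), and all 5 mesothelial markers were at 0. The 5 red cell markers summed to 48.0 CPM in S100A4-11 and 604 CPM in IgG pericytes (0.0795, 0.0359 to 0.154), and 1 IgG member held 95.2% of the Hbb-bs UMIs. Some members held many such UMIs: 14 of 99 S100A4-11 and 16 of 178 IgG members held at least 10 UMIs of a short immune, fibroblast, smooth muscle, endothelial or haemoglobin set. Values without these 30 members (left out after seeing the data) are given below where they matter. Among the 30, 6 S100A4-11 and 6 IgG members met the smooth muscle set, Acta2 and Tagln. Whether those UMIs were the members' own RNA was not tested.

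Gene length also moved with the library. Genes were split into 5 groups of equal size by the length of the gene body. In the shortest group (up to 9.18 kb) the median log2 ratio of S100A4-11 over IgG pericytes was 0.24, and in the longest (over 101 kb) it was -0.38, with the others at 0.08, -0.01 and -0.16 in order of length. The medians ran the same way, from the shortest group to the longest, in the other 5 gates looked at: from 0.10 to -0.17 in smooth muscle, 0.12 to -0.30 in fibroblasts, 0.03 to -0.17 in the endothelial gate, -0.09 to -0.38 in neutrophils and -0.02 to -0.22 in B cells, as the plot of ratio by gene length shows. Ribosomal protein genes took 8.23% of the UMIs of S100A4-11 pericytes and 5.38% of those of IgG pericytes, against 9.94% and 9.20% in smooth muscle. Mitochondrially encoded genes took 2.05% of UMIs in S100A4-11 and 1.86% in IgG pericytes, and the nuclear RNA Malat1 took 2.29% and 2.43%. The part that length, free RNA or RNA makeup plays in the differences below was not tested.

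**Figure D3:**
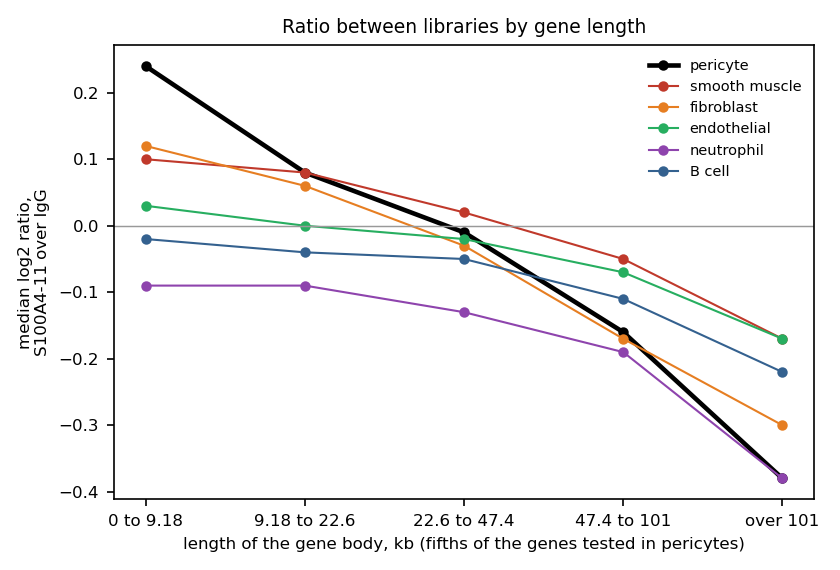
Median log2 ratio of S100A4-11 over IgG (vertical axis) in 5 groups of gene-body length in kb (horizontal axis) for pericytes and 5 other gates; each point is the median over the genes with at least 20 UMIs in that gate. In pericytes the medians run from 0.24 in the shortest group to -0.38 in the longest.

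Between the libraries, 5354 genes had at least 20 UMIs over both. A gene is called higher or lower when its fold (S100A4-11 over IgG) was at least 1.5 in that direction and its counting interval left out 1. By that rule 270 genes were higher (5.04% of those tested) and 339 were lower (6.33%). The median log2 ratio was -0.04, with 0.5 UMI added to each count. With median-of-ratios scaling 343 were higher and 268 lower, so the balance between directions is not fixed by these data. Without the 30 members that met those marker sets, 151 were higher, 99 of them among the 270, and 212 were lower, 164 of them among the 339. With the endothelial profile subtracted at the scale given above, 299 were higher, 261 of them among the 270. In that setting 339 were lower, 312 of them among the 339 called without it. Of the genes in the longest group 19 were higher and 199 lower, and of those in the shortest group 123 were higher and 27 lower.

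Of the 12 genes named as higher, 1 had a gene body over 101 kb. Cavin3, a coat protein of caveolae, stood at 245 CPM in S100A4-11 pericytes (46 UMIs, 29.3% of cells) and 73.0 CPM in IgG pericytes (26 UMIs, 12.4% of cells), a fold of 3.36 (2.03 to 5.66). In smooth muscle, where caveolae are also abundant, Cavin3 stood at 637 CPM in the S100A4-11 library and 644 CPM in the IgG library. Without the 30 members its fold in pericytes was 3.08. Ier3, an immediate early survival gene, stood at 624 CPM in S100A4-11 and 230 CPM in IgG pericytes (2.71, 2.03 to 3.64), and its fold in smooth muscle was 1.19. Gpx3, the secreted glutathione peroxidase, stood at 1365 CPM in S100A4-11 and 713 CPM in IgG pericytes (1.91, 1.60 to 2.29), and its fold was 1.60 in smooth muscle and 1.25 in fibroblasts, where it reached 4035 and 3234 CPM. The glutathione transferases Gstm1 and Gstp1 had folds of 2.2 (1.52 to 3.19) and 1.92 (1.39 to 2.65), and with members thinned to 1000 UMIs that of Gstm1 was 1.70 (0.907 to 3.17).

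Wls, which carries Wnt ligands to the cell surface, stood at 219 CPM in S100A4-11 and 104 CPM in IgG pericytes (2.10, 1.32 to 3.38), and its fold without the 30 members was 2.26. Tle5, a shortened member of the Groucho co-repressor family, stood at 325 and 138 CPM in the same order (2.36, 1.60 to 3.52), and 2.42 without them. Zfp36l1, an RNA-binding protein that promotes decay of AU-rich transcripts, had a fold of 2.31 (1.57 to 3.41), but without the 30 members it was 1.59 with an interval of 0.977 to 2.57. Tmem176b, a membrane channel protein, had a fold of 2.10 (1.58 to 2.80), and of 1.42 (0.972 to 2.06) among members with at least 3 of the 5 markers. The translation genes Eef1a1 and Tpt1 had folds of 1.61 (1.43 to 1.81) and 1.77 (1.49 to 2.09), and were under 1.5 without the 30 members, at 1.34 and 1.41. Gphn, the synaptic scaffold gephyrin, stood at 3684 CPM in S100A4-11 and 2117 CPM in IgG pericytes (1.74, 1.57 to 1.93). It was also above 1 in the other gates, at 1.26 in smooth muscle and 1.32 in the endothelial gate, and it was 1.43 in pericytes once Scrublet doublets were removed. Among members with at least 500 genes it was 1.37. In the S100A4-11 library 1 member held 19.8% of the Gphn UMIs, against 4.24% in the IgG library.

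Of the 12 genes named as lower, 11 had a gene body over 101 kb, the length group with the lowest median. Ctnna1, alpha-catenin, which ties cadherins to actin, stood at 74.6 CPM in S100A4-11 pericytes (14 UMIs, 11.1% of cells) and 303 CPM in IgG pericytes (108 UMIs, 41.0% of cells), a fold of 0.246 (0.130 to 0.431). Vcl, vinculin, which ties integrins and cadherins to actin, stood at 133 CPM in S100A4-11 and 371 CPM in IgG pericytes (0.360, 0.225 to 0.555). Neither gap was of that size in smooth muscle, where the folds were 1.21 for Ctnna1 and 0.827 for Vcl, or in the endothelial gate, where they were 1.01 and 0.863; the difference between gates was not tested. Adgrl2, an adhesion receptor, stood at 16 CPM in S100A4-11 and 95.4 CPM in IgG pericytes (0.168, 0.0329 to 0.533), on 3 and 34 UMIs. Dock9, an exchange factor for the GTPase CDC42, stood at 16 and 107 CPM in the same order (0.150, 0.0296 to 0.473). In the endothelial gate, Adgrl2 stood at 259 CPM in the S100A4-11 and 312 CPM in the IgG library, and Dock9 at 375 and 433 CPM. The part of endothelial RNA in these lower levels was not tested.

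Zbtb16, the zinc finger factor PLZF, which glucocorticoids induce, stood at 42.6 CPM in S100A4-11 pericytes (8 UMIs) and 267 CPM in IgG pericytes (95 UMIs), a fold of 0.160 (0.0671 to 0.328). Its fold was 0.545 in smooth muscle, 0.548 in fibroblasts, 0.501 in the endothelial gate, 0.368 in neutrophils and 0.439 in B cells. Its fold in pericytes without the 30 members was 0.279. The other glucocorticoid targets did not share its size: Fkbp5 had a fold of 0.748 (0.361 to 1.46) and Tsc22d3 0.975 (0.698 to 1.35). Rbms3, an RNA-binding protein, stood at 357 CPM in S100A4-11 and 912 CPM in IgG pericytes (0.392, 0.296 to 0.511), and Pde4d, a cyclic AMP phosphodiesterase, at 58.6 and 205 CPM (0.286, 0.137 to 0.543). Over the 10 other gates the fold ran from 0.271 in T cells to 0.809 in type 2 alveolar epithelium for Rbms3, and from 0.453 in neutrophils to 0.967 in monocytes for Pde4d. Tle4, a full-length Groucho co-repressor, had a fold of 0.285 (0.124 to 0.578), against 2.36 for the shortened Tle5. Arl15, a small GTPase, had 0.386 (0.263 to 0.552), Mtcl1, a microtubule crosslinker, 0.2 (0.0518 to 0.555), Etnk1, ethanolamine kinase, 0.178 (0.0349 to 0.569), and Klhl2, an actin-binding ubiquitin ligase adaptor, 0.127 (0.0147 to 0.499). Arl15 stood at 197 CPM in S100A4-11 and 511 CPM in IgG pericytes, and at 916 and 1073 CPM in the endothelial gate.

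**Figure D4:**
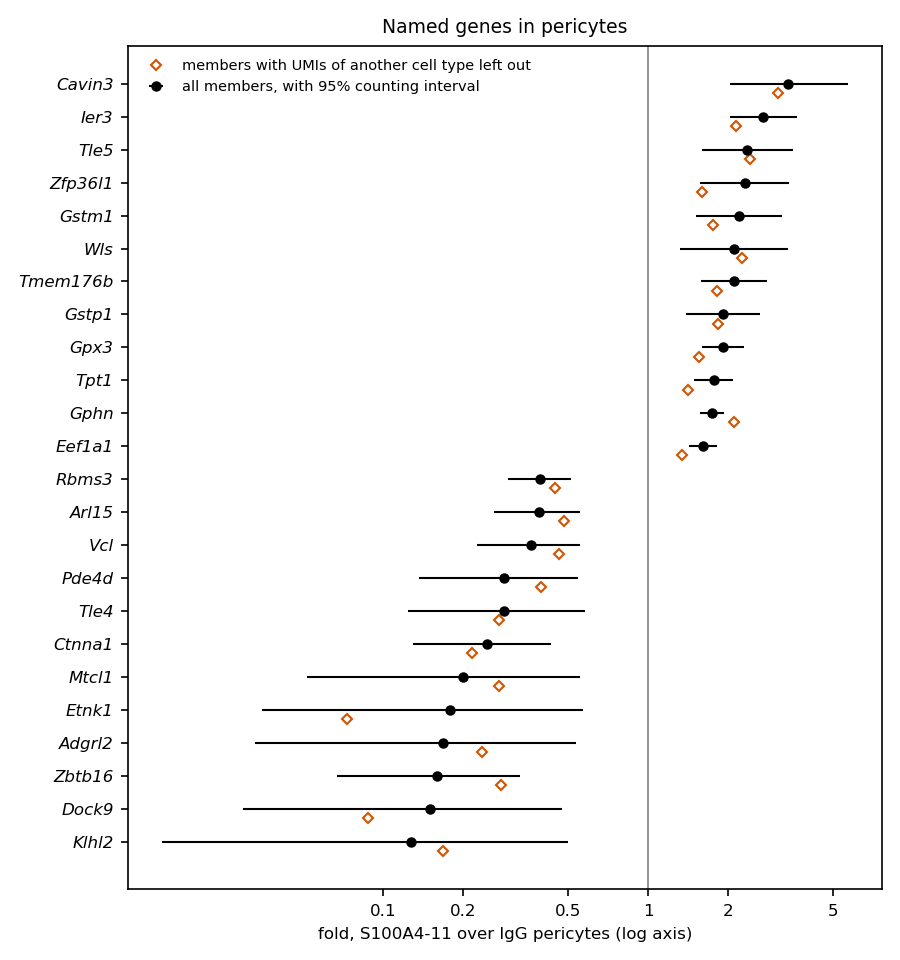
Fold of S100A4-11 over IgG pericytes (log axis) for the 12 named higher and 12 named lower genes. Black points are all members with their 95% counting interval. Open orange diamonds are the fold without the 30 members that held at least 10 UMIs of a marker set of another cell type. All diamonds lie on the same side of 1 as their black points, and those of Eef1a1 and Tpt1 are under 1.5, at 1.34 and 1.41.

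Pdgfrb and Notch3 chose the members and are given above. Of 11 other genes of PDGF and Notch signalling with at least 20 UMIs, 1 was higher and none lower. Over all genes tested 5.04% were higher and 6.33% lower. The list median was -0.06. The higher gene was Heyl, a transcriptional repressor that Notch3 induces in mural cells: it stood at 325 CPM in S100A4-11 pericytes (61 UMIs) and 171 CPM in IgG pericytes (61 UMIs), a fold of 1.90 (1.31 to 2.75), and 1.96 without the 30 members. In smooth muscle Heyl stood at 246 and 217 CPM, a fold of 1.13. Other Notch genes were uncalled and went both ways. The folds were 0.931 (0.553 to 1.53) for the target Hes1 and 1.12 (0.722 to 1.70) for the feedback inhibitor Nrarp. The receptors Notch1 and Notch2 had 0.839 (0.543 to 1.27) and 1.07 (0.707 to 1.60). Maml2, a Notch coactivator, had 0.673 (0.479 to 0.932), just short of the 1.5-fold size though its interval left out 1. Pdgfa, a ligand, had a fold of 0.958 (0.684 to 1.33).

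Of 18 genes of cyclic nucleotide signalling with at least 20 UMIs, 4 were lower (Gucy1a2, Prkg1, Pde3a and Pde4d) and 1 was higher (Pde4b), beside 6.33% lower and 5.04% higher over all genes tested and 18.6% lower among the longest genes. The list median was -0.25, and -0.01 with the length groups taken off. Prkg1, the cyclic GMP-dependent kinase, stood at 2138 CPM in S100A4-11 pericytes (401 UMIs) and 3736 CPM in IgG pericytes (1331 UMIs), a fold of 0.572 (0.510 to 0.640). Pde3a, a phosphodiesterase that cyclic GMP inhibits, stood at 464 CPM in S100A4-11 and 915 CPM in IgG pericytes (0.507, 0.395 to 0.644). The receptor pair itself, Gucy1a1 and Gucy1b1, was not called, with folds of 0.913 (0.827 to 1.01) and 0.886 (0.784 to 0.999), while the alternative alpha subunit Gucy1a2 stood at 240 CPM in S100A4-11 and 508 CPM in IgG pericytes (0.472, 0.333 to 0.658). The Prkg1 fold was 0.728 in smooth muscle, 0.569 in fibroblasts, 0.825 in the endothelial gate, 0.336 in neutrophils and 1.02 in monocytes. After the median of its length group was taken off, the Prkg1 fold was 0.747, short of the 1.5-fold size (0.666 to 0.835). Pde4b, which breaks down cyclic AMP, had a fold of 2.18 (1.34 to 3.56), but 1 member held 33.3% of its UMIs in the S100A4-11 library.

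Of 13 ion channel and vasoactive receptor genes 3 were lower and none higher, with a list median of -0.30. Over all genes tested 6.33% were lower and 5.04% higher, and among the longest genes 18.6% were lower. Cacnb2, a voltage-gated calcium channel subunit, stood at 277 CPM in S100A4-11 and 497 CPM in IgG pericytes (0.558, 0.401 to 0.764), and with its length group taken off the fold was 0.728 (0.524 to 0.997). Its fold was below 1 in all 10 other gates too, among them 0.435 in smooth muscle, 0.660 in fibroblasts and 0.602 in the endothelial gate. Calcrl, the receptor of adrenomedullin and also an endothelial marker of the free RNA list, stood at 112 CPM in S100A4-11 and 289 CPM in IgG pericytes, a fold of 0.387. The endothelin receptor Ednra, at 410 CPM in S100A4-11 and 432 CPM in IgG pericytes, had a fold of 0.950 (0.713 to 1.26), and the angiotensin receptor Agtr1a 0.822 (0.598 to 1.12).

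Of 23 contractile genes with at least 20 UMIs, 17 had a ratio above 1, 3 were higher (Tagln, Tpm2 and Csrp2) and 2 lower (Vcl and Ppp1r12a), with a list median of 0.19. Over all genes tested 53.6% had a ratio below 1, 5.04% were higher and 6.33% lower. Tagln, the actin-binding protein SM22, stood at 672 CPM in S100A4-11 pericytes and 379 CPM in IgG pericytes (1.77, 1.38 to 2.28), and 1 member held 25.4% of its S100A4-11 UMIs. Only 25.3% of S100A4-11 and 24.2% of IgG members had a Tagln UMI, and 16.2% and 12.4% had one of Acta2, smooth muscle actin; at this depth no UMI does not show that a member lacked the RNA. Des, desmin, the intermediate filament of mural cells, stood at 826 CPM in S100A4-11 and 592 CPM in IgG pericytes, a fold of 1.40 (1.13 to 1.72) that stayed under 1.5. The smooth muscle marker list was 1.52 times as high in S100A4-11 pericytes. It shares genes with the contractile list, Tagln, Tpm2, Des and Acta2 among them, so the lists are not independent. Of the members, 6 S100A4-11 and 6 IgG held at least 10 UMIs of Acta2 and Tagln. Ppp1r12a, the regulatory subunit of myosin phosphatase, had a fold of 0.534 (0.335 to 0.826), and 0.697 (0.437 to 1.08) with its length group taken off. Its fold was 0.577 in smooth muscle and 0.878 in fibroblasts.

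Basement membrane and matrix genes, the product of these cells that endothelium rests on, were close in both libraries. Of 35 genes with at least 20 UMIs none was higher and 3 were lower, beside 5.04% higher and 6.33% lower over all genes tested. The list median was -0.03. Col4a1, collagen IV, stood at 1445 CPM in S100A4-11 and 1670 CPM in IgG pericytes (0.865, 0.746 to 1), Sparc at 2884 and 3043 CPM (0.948, 0.853 to 1.05), and Mfge8, a phosphatidylserine-binding secreted protein, at 2084 and 2128 CPM (0.980, 0.865 to 1.11). Postn, also a niche protein, had a fold of 0.925 (0.835 to 1.02). The lower genes were Lama2, the laminin alpha 2 chain, at 288 CPM in S100A4-11 and 578 CPM in IgG pericytes (0.498, 0.362 to 0.675), Hmcn1, hemicentin, at 48.0 and 107 CPM (0.450, 0.191 to 0.946), and Itga8, an integrin chain, at 48.0 and 115 CPM (0.417, 0.178 to 0.871). For Itga8 the interval took in 1 without the 30 members (0.597, 0.198 to 1.52).

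Among paracrine ligands, 1 of 15 was higher and 2 were lower, beside 5.04% higher and 6.33% lower over all genes tested. The list median was -0.13. Angpt1, angiopoietin 1, which stabilises capillaries through the endothelial receptor TIE2, stood at 490 CPM in S100A4-11 pericytes (92 UMIs) and 772 CPM in IgG pericytes (275 UMIs), a fold of 0.635 (0.496 to 0.807). The ratio was 0.897 in smooth muscle and 0.761 in fibroblasts. It was 0.466 in the endothelial gate (5.46 and 11.7 CPM) and 0.306 in neutrophils (9.63 and 31.5 CPM), where levels were low. In pericytes it was 0.672 without the 30 members and 0.829 (0.647 to 1.05) with its length group taken off, so the call was lost in both. Pgf, placental growth factor, which binds VEGF receptor 1, stood at 171 CPM in S100A4-11 and 98.3 CPM in IgG pericytes (1.74, 1.04 to 2.89), on 32 and 35 UMIs, a call lost without the 30 members (1.66, 0.945 to 2.87), and its fold was 1.39 in smooth muscle. Slit2, a guidance ligand, was lower (0.380, 0.129 to 0.927), but 1 IgG member held 53.3% of its UMIs. Kitl, stem cell factor, and Hgf, hepatocyte growth factor, had folds of 0.883 (0.639 to 1.21) and 0.883 (0.492 to 1.53), and Il34, a ligand of the CSF1 receptor, 1.06 (0.692 to 1.62).

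The transcript S100a4, after which the antibody is named, was scarce in these cells. The protein, inside or outside cells, was not measured. S100a4 gave 3 UMIs in 3.03% of S100A4-11 pericytes and 3 UMIs in 1.12% of IgG pericytes. That is 16 CPM (3.30 to 46.7) and 8.42 CPM (1.74 to 24.6). In neutrophils S100a4 stood at 20.6 CPM in the S100A4-11 library and 38.1 CPM in the IgG library. In the endothelial gate it stood at 1.04 and 3.03 CPM. The S100A4-11 pericyte interval takes in the neutrophil level, and the IgG pericyte interval takes in the endothelial level. Levels of S100a4 were higher in smooth muscle (336 and 352 CPM), T cells (228 and 222 CPM) and monocytes (672 and 623 CPM). Its relative S100a6 stood at 496 CPM in S100A4-11 pericytes (93 UMIs) and 219 CPM in IgG pericytes (78 UMIs), a fold of 2.26 (1.66 to 3.10), and 2.53 without the 30 members. S100a10, the annexin A2 partner, had a fold of 1.63 (1.01 to 2.60), and 1.5 (0.873 to 2.53) without those members. S100a11 had 1.19 (0.944 to 1.51). Of 13 genes of the S100 family and of S100A4 partners with at least 20 UMIs, 4 were higher and 1 lower, beside 5.04% and 6.33% over all genes tested. The list median was 0.32, and -0.15 with members thinned to 1000 UMIs. Another higher gene was S100a8, of which 1 member held 71.9% of the S100A4-11 UMIs. The adhesion receptor Cd44 had a fold of 2.55 (1.64 to 3.99) with 35.3% of its S100A4-11 UMIs in 1 member, and the receptor Egfr was lower on 3 and 22 UMIs (0.259, 0.0496 to 0.862).

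Heat shock chaperones had the lowest median of the 19 lists plotted by gene. All 17 genes with at least 20 UMIs had a ratio below 1, 5 were lower and none higher, with a list median of -0.53, against -0.04 over all 5354 genes, of which 6.33% were lower. Among members with no UMI of Myh11, Actg2 or Cnn1 the list median was -0.15. Hspa8, the constitutive HSC70, stood at 757 CPM in S100A4-11 pericytes (142 UMIs) and 1137 CPM in IgG pericytes (405 UMIs), a fold of 0.666 (0.546 to 0.808). Hsph1, its nucleotide exchange factor, stood at 80.0 and 199 CPM (0.401, 0.213 to 0.707), but 1 member held 60% of its S100A4-11 UMIs and the interval took in 1 without the 30 members (0.669, 0.307 to 1.34). The others were Dnajb1 (0.604, 0.380 to 0.934), Hspe1 (0.426, 0.2 to 0.831) and Chordc1 (0.429, 0.159 to 0.993). Among those same members the Dnajb1 fold was 1.36 (0.772 to 2.37) and the Hspa8 fold 0.905 (0.706 to 1.15), so the first changed direction and neither was called. The Hsph1 fold was 0.464 in smooth muscle, 0.470 in fibroblasts, 0.430 in the endothelial gate, 0.377 in neutrophils and 1.02 in B cells. The small chaperone Cryab stood at 645 CPM in S100A4-11 and 682 CPM in IgG pericytes (0.946, 0.754 to 1.18).

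Immediate early genes, which tissue dissociation induces, were uneven. Of 23 with at least 20 UMIs 4 were higher (Junb, Ier2, Ier3 and Nr4a3) and 1 lower (Fosb). The shares over all genes tested were 5.04% higher and 6.33% lower. The list median was 0.15, but -0.24 among members with at least 3 of the 5 markers and 0.57 among those with no UMI of Myh11, Actg2 or Cnn1. Junb stood at 1413 CPM in S100A4-11 and 910 CPM in IgG pericytes (1.55, 1.32 to 1.83), and 1 member in each library held 36.2% and 36.1% of its UMIs. Fosb stood at 37.3 and 168 CPM (0.222, 0.0854 to 0.485), with 42.9% and 33.3% in 1 member. Fos had a fold of 0.713 (0.545 to 0.926) and Jun 0.882 (0.692 to 1.12).

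Of the inflammatory and NF-kB genes 3 of 14 were higher (Nfkb1, Tnfaip3 and Ptgs2) and 4 lower (Nfkbia, Nfkbiz, Cxcl2 and Icam1), with a list median of 0.11. The shares over all genes tested were 5.04% higher and 6.33% lower. Nfkbia, the inhibitor of NF-kB, stood at 347 CPM in S100A4-11 and 536 CPM in IgG pericytes (0.646, 0.480 to 0.861), and Nfkb1, a subunit of the factor, at 309 and 174 CPM (1.78, 1.22 to 2.58). Cxcl2, a neutrophil chemokine, had 72.9% of its S100A4-11 and 77.8% of its IgG UMIs in 1 member each, and all 15 S100A4-11 UMIs of Ptgs2 came from 1 member. Icam1 rested on 1 and 27 UMIs. Interferon genes gave no higher call: none of 12 type I response genes was higher and 1, Isg15, was lower (0.368, 0.125 to 0.894). Of 14 interferon-gamma and MHC class I genes none was higher and 1 was lower, with a list median of 0.26. H2-K1, a class I heavy chain, stood at 485 CPM in S100A4-11 and 368 CPM in IgG pericytes (1.32, 0.998 to 1.74).

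Of the TGF-beta response genes 3 of 21 were higher (Thbs1, Tgfbi and Pmepa1) and 1, Smad6, was lower on 1 and 21 UMIs, with a list median of -0.17. For this list and those below, the shares over all genes tested were 5.04% higher and 6.33% lower. Thbs1, thrombospondin 1, had a fold of 4.89, but 1 member held 94.0% of its S100A4-11 UMIs. Tgfbi, a secreted matrix protein, rested on 14 and 9 UMIs. Pmepa1, a feedback inhibitor of the pathway, stood at 90.6 and 30.9 CPM (2.93, 1.30 to 6.93), on 17 and 11 UMIs. Of the pre-metastatic niche genes 2 of 12 were higher, and these were Thbs1 and S100a8, each with most of its S100A4-11 UMIs in 1 member as given above. Hypoxia and glycolysis genes gave no call among 12, with Epas1, the hypoxia factor of vascular cells, at 874 CPM in S100A4-11 and 1053 CPM in IgG pericytes (0.831, 0.687 to 1). Only 2 proliferation genes, Pcna and Hmgb2, had 20 UMIs.

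Of 27 transcription factors of the lung mesenchyme and of mural cells 1 was higher (Heyl, given above) and 3 were lower, beside 5.04% and 6.33% over all genes tested, with a list median of -0.28. Tbx2, Tbx4 and Tbx5, which pattern the lung mesenchyme, were near 1, with folds of 0.968 (0.815 to 1.15), 1.05 (0.818 to 1.35) and 0.894 (0.701 to 1.13). Foxp1, a forkhead factor, stood at 522 CPM in S100A4-11 and 957 CPM in IgG pericytes (0.546, 0.431 to 0.685), Tcf4, a basic helix-loop-helix factor, at 464 and 710 CPM (0.653, 0.506 to 0.836), and Meis2, a homeobox factor, at 16 and 87.0 CPM on 3 and 31 UMIs (0.184, 0.0360 to 0.589). With each member weighing the same, the Meis2 fold was 0.503 (0.0857 to 1.41), which ended the call. With their length groups taken off, the Foxp1 fold was 0.712 (0.563 to 0.894) and the Tcf4 fold 0.852 (0.660 to 1.09), so neither was called. Of 20 glucocorticoid and circadian genes 1 was higher (Mt1) and 2 were lower (Zbtb16 and Nr3c1), with a list median of -0.01. The intervals of the clock genes took in 1: Nr1d1 had a fold of 1.06 (0.675 to 1.64), Dbp 1.18 (0.815 to 1.68) and Per1 1.44 (0.847 to 2.41). Nr3c1, the glucocorticoid receptor, stood at 203 CPM in S100A4-11 and 317 CPM in IgG pericytes (0.639, 0.430 to 0.930), a call lost without the 30 members (0.679, 0.438 to 1.02). Mt1, a metallothionein, had a fold of 1.93 (1.5 to 2.49), with 70.1% of its S100A4-11 and 54.4% of its IgG UMIs in 1 member each.

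**Figure D5:**
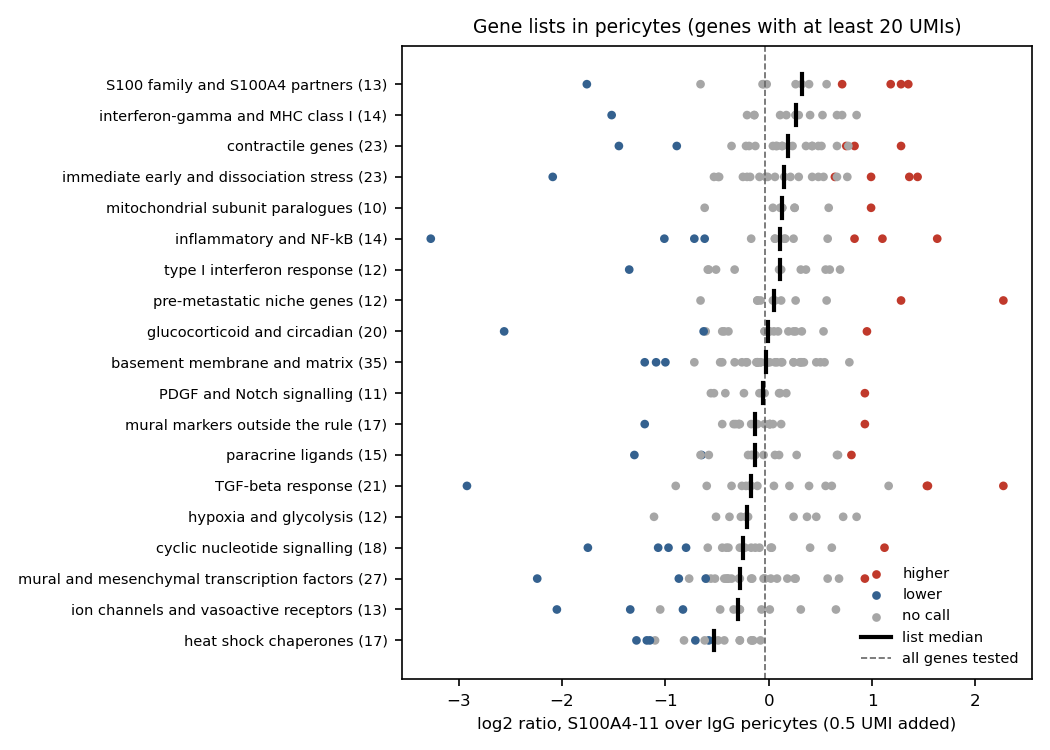
Log2 ratio of S100A4-11 over IgG pericytes (horizontal axis) for every gene with at least 20 UMIs in each gene list (number of genes in brackets); points are genes, red called higher, blue called lower and grey not called, thick black bars are list medians and the dashed line is the median of all genes tested (-0.04). Heat shock chaperones are the lowest list, with a median of -0.53 and all 17 genes below 0.

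The members also varied among themselves. Each was thinned to 1000 UMIs, which left out 31 S100A4-11 and 40 IgG members that were shallower, and the variance over the mean (Fano factor, near 1 for counting noise) was taken for 1621 genes. The median was 1.15 over 68 S100A4-11 members and 1.17 over 138 IgG members, and 78 genes were over 2 in both libraries. Genes were ranked by the lower of their Fano factors in the 2 libraries. The 15 highest were Gm42418, Junb, Mt1, Malat1, Cdk8, Cxcl2, Zfp36, Kcnq5, Nr4a1, Lars2, Pdzd2, Prkg1, Cst3, Gm26917 and Egr1. Gphn ranked lower because its Fano factor was 54.8 in S100A4-11 but 4.44 in IgG members, with up to 136 and 23 UMIs in 1 member. Junb had a Fano factor of 15.7 in S100A4-11 and 15.2 in IgG members, yet a UMI in only 20.6% and 22.5% of them, and up to 31 and 36 UMIs in 1 member. Mt1 behaved alike, with 13.8 and 15 and a UMI in 11.8% and 7.25% of members. Pdzd2 was spread otherwise: it was seen in 83.8% of S100A4-11 and 89.9% of IgG thinned members, with Fano factors of 7.09 and 7.22, and Prkg1 in 54.4% and 77.5%, with 7.01 and 6.98. The Fano factors of the rule's genes are bound by the rule. Pdgfrb had Fano factors of 1.15 and 1.25, Notch3 1.38 and 1.04 and Cox4i2 3.25 and 3.37. Outside the rule, Gucy1a1 had 2 and 2.07 and Postn 3.37 and 3.36. Unthinned, Postn was seen in 70.7% of S100A4-11 and 77.5% of IgG members, and in 73.5% and 71.0% after thinning.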

How the data were processed

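Gene by barcode UMI counts of 2 libraries were deposited by the authors as whole-number matrices, per the file headers, with no normalization. Cell Ranger 7.1.0 and the mm10 build are named per the submitters' processing notes. The members and gene lists were chosen with earlier results of these data known.

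UMIs were summed over the members of each library and divided by their total to give CPM. The fold (S100A4-11 over IgG) has an exact conditional binomial interval and shares have exact Clopper-Pearson intervals, all at 95%. With 1 library per group there was no test and no p-value. Genes needed 20 UMIs over both libraries. Log2 ratios used 0.5 UMI as pseudocount. Scrublet doublets were kept in the members and removed as an alternative.

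Named genes needed 50 CPM and 30 UMIs in 1 library, 20% of the highest gate's CPM, and at most 25% of UMIs in 1 member. The 12 higher and 12 lower with the interval bound farthest from 1 were named, with up to 4 members per list. Other genes called in a list, and those given for comparison, were named after their values were seen. Some genes counted in the lists are not reported here by name. The interval script was tested on simulated data. Python 3.11.15, numpy 2.4.6, pandas 2.3.3, scipy 1.17.1, scanpy 1.11.5 and matplotlib 3.10.9 were used.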

Additional observations from a re-analysis of the deposited data

How the results depend on the processing

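The pericyte share ratio ranged from 0.583 to 0.706 over 8 alternatives, each within the interval of the value reported. Against 270 genes higher and 339 lower, thinning members to 1000 UMIs gave 120 and 124 of 2142 genes, no filter on low counts gave 420 and 426, at least 100 UMIs per gene gave 87 and 114, and a fold of at least 2 gave 153 and 219. Requiring 3 of the 5 markers gave 165 and 253. Chosen after seeing the data, leaving out the 30 members that met a marker set of another cell type gave 151 and 212. Taking off the median of each gene's length group, also chosen then, gave 239 and 206. Median-of-ratios scaling put 56.1% of calls on the higher side, against 44.3%, and moved the median log2 ratio to 0.03; thinning put 49.2% there and the total without mitochondrial, ribosomal and haemoglobin genes 51.0%. The cause was not tested. Of 577 values for 43 named genes, 540 stayed within the counting interval of the value reported, 36 left it and 1 changed direction. Of 42 called genes, 20 lost the call under at least 1 of 13 settings, 55 times in all. Dnajb1 was 1.36 among members with no UMI of Myh11, Actg2 or Cnn1, against 0.604. Of 285 list medians 276 stayed close. The mitochondrial relatives changed sign (-0.05 with length taken off, against 0.13). Thinned, the S100 list gave -0.15, against 0.32, and the mural list 0.03, against -0.13. Immediate early genes gave -0.24 with 3 of 5 markers, against 0.15. With no UMI of Myh11, Actg2 or Cnn1 the medians were 0.57 for immediate early genes, 0.47 for hypoxia (against -0.21), 0.30 for glucocorticoid and circadian genes (against -0.01), -0.15 for heat shock (against -0.53) and -0.50 for transcription factors (against -0.28). No paired analysis was possible because each group has 1 library. Depth limits what can be seen: the median tested gene had 14 UMIs in S100A4-11 and 28 in IgG pericytes.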
